A study of Mus musculus with 12 samples.

Results

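The genes described here are 40 mouse genes of the ATF4 response and the unfolded protein response, chosen by symbol from a list and found by Ensembl identifier in a count table of 22880 features. They fall into an ATF4 arm of 25 genes and an ER arm of 15 genes. The ATF4 arm holds 9 regulators and stress outputs, 6 enzymes of amino acid synthesis and one-carbon metabolism, 4 amino acid transporters and 6 aminoacyl-tRNA synthetases. The ER arm holds 4 sensors and transcription factors, 9 chaperones and folding factors and 2 genes of ER-associated degradation. No measured value entered the rule, but the 40 genes were chosen with earlier results of these data known. All 40 genes were in the table and all 40 were among the 11291 genes with enough counts to be tested.

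RNA was sequenced from cultured 4T1 cells, a metastatic line from a mouse mammary tumour, in 4 groups of 3 libraries. MYBup cells carried the plasmid pcDNA3-mMyb for overexpression of the Myb oncogene, and their lung metastatic activity is labelled low. Mock cells carried pcDNA3.1, were labelled normal, and are the control for MYBup. The lung3 cells were untransfected, had been passaged 3 times through the lung of host animals, and are labelled high, and wt cells were untransfected, unpassaged and labelled normal. The study asked which genes change one way with Myb and the other way after selection in the lung. The labels do not say whether a line is 1 clone or a pool, nor whether replicates came from separate cultures, so p-values reflect the differences among these libraries only, and those differences may be technical.

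Cells that run short of amino acids, or whose endoplasmic reticulum (ER) fills with unfolded protein, phosphorylate the initiation factor eIF2. General translation then slows while Atf4 mRNA is translated better, and ATF4 protein, paired with C/EBP family partners, switches on amino acid synthesis, uptake and tRNA charging. The ER also signals through IRE1 (gene Ern1), which splices Xbp1 mRNA, and through ATF6, which is cleaved in the Golgi, and both raise chaperones such as BiP (gene Hspa5). PERK (gene Eif2ak3) is the ER's own eIF2 kinase and so joins the pathways. Counts per gene show mRNA level only, not ATF4 protein, eIF2 phosphorylation or Xbp1 splicing.

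The promoters of both arms were searched because these pathways act through known DNA elements. RefSeq windows on GRCm38.p6 were found for 33 of the 40 genes, 20 of the ATF4 arm and 13 of the ER arm; Slc7a5, Slc1a5, Cars, Nars, Wars, Atf6 and Manf had none. The 250 bases before each start were read on both strands. The C/EBP-ATF element, TGATGNAA, is the site bound by ATF4 with its C/EBP partner. It occurred in 6 of 20 ATF4 arm genes (Chac1, Asns, Gars, Nupr1, Aars and Vldlr) and in 1 of 13 ER arm genes (Herpud1), against 3.45% of 32851 mouse promoters. The arms are counted by gene, with a match in any of its windows, and the mouse promoters by window, so these shares are not in the same unit. The ER stress element reads CCAAT, then 9 bases of any kind, then CCACG, and is bound by ATF6 together with NF-Y. It occurred in 0 of 20 ATF4 arm genes and in 5 of 13 ER arm genes (Hspa5, Calr, Hsp90b1, Pdia6 and Creld2), against 0.113% of all promoters. A second form ends in the same CCACG and reads ATTGG, 1 base of any kind, then CCACG. It was in Herpud1 alone among the 33, against 0.0304% of all promoters. The unfolded protein response element TGACGTGG was in 0 of the 33, against 0.563% of all promoters. A match is a run of letters, not evidence of binding. The genes were listed as known members of these pathways, so the shares are not independent of that choice and were not tested.
The windows below are a choice among these matches, for genes whose values are described later; each is on the gene's own strand, 5′ to 3′, with the matched letters in capitals. Chac1, Asns, Gars, Aars and the first Herpud1 window hold the C/EBP-ATF element, in most of them as its reverse complement. Hspa5, Calr and Creld2 hold the ER stress element and the second Herpud1 window holds its second form.
Chac1 (chr2:119351033-119351072, plus strand): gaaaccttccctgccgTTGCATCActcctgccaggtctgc
Asns (chr6:7693220-7693237, minus strand): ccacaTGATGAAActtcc
Gars (chr6:55037955-55037994, plus strand): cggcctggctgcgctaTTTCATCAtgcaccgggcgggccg
Aars (chr8:111033725-111033742, plus strand): gagcaTTGCATCAgccga
Herpud1 (chr8:94386301-94386340, plus strand): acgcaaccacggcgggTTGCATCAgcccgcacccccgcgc
Herpud1 (chr8:94386361-94386403, plus strand): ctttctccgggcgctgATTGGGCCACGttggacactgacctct
Hspa5 (chr2:34772020-34772048, plus strand): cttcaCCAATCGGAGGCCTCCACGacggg
Calr (chr8:84847059-84847109, minus strand): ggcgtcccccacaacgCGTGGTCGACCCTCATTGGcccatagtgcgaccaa
Creld2 (chr15:88819504-88819554, plus strand): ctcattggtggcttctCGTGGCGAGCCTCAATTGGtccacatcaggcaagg

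Library totals ran from 8912989 counts (lung3 replicate 2) to 24745660 counts (wt replicate 2). Values are given in CPM, counts scaled to a common library size with TMM factors. Myb itself stood at 39.3, 42.9 and 39.8 CPM in the MYBup libraries and at 5.17, 4.49 and 6.80 CPM in the mock libraries. It was at 3.13, 2.77 and 2.22 CPM in the lung3 libraries and at 4.27, 4.96 and 5.75 CPM in the wt libraries, so Myb was high in all 3 libraries labelled MYBup and in no other. All libraries expressed the epithelial markers Krt8, Krt18, Epcam and Cdh1. Their list also held Krt14 and Krt5, and 1 of its 6 markers had no count in the mock, lung3 and wt libraries. Lung epithelial markers summed to at most 0.208 CPM. Summed leukocyte markers, mostly Cd68, lay between 7.85 and 8.29 CPM in lung3 and between 4.58 and 6.14 CPM in wt libraries. Cd3e and Adgre1 had no count in any library. Summed fibroblast markers, almost all Pdgfra, lay between 15.9 and 21.6 CPM in lung3 and between 21.7 and 30.2 CPM in wt libraries, and between 38.7 and 48.6 CPM in MYBup and between 36.9 and 49.0 CPM in mock libraries. The part of either signal in the values below was not tested.

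Some libraries stood apart in the ATF4 arm. Mock replicate 3 was the lowest mock library for 22 of the 25 ATF4 arm genes, against 37.2% of all genes tested, and mock replicate 2 was the highest for 20, against 42%. The lung3 replicate 1 library was the highest of its group for 23 of the 25, against 34.6% of all genes. In wt, replicate 2 was the lowest for 18 of the 25, against 31.6% of all genes, and the highest for 0, against 30.6%. In MYBup, replicate 1 was the highest for 17 of the 25, against 40.4% of all genes. The arm therefore moved between replicates of 1 group, most widely in mock and in lung3. The ER arm had no library that was lowest in more than 8 of its 15 genes or highest in more than 9.

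**Figure D1:**
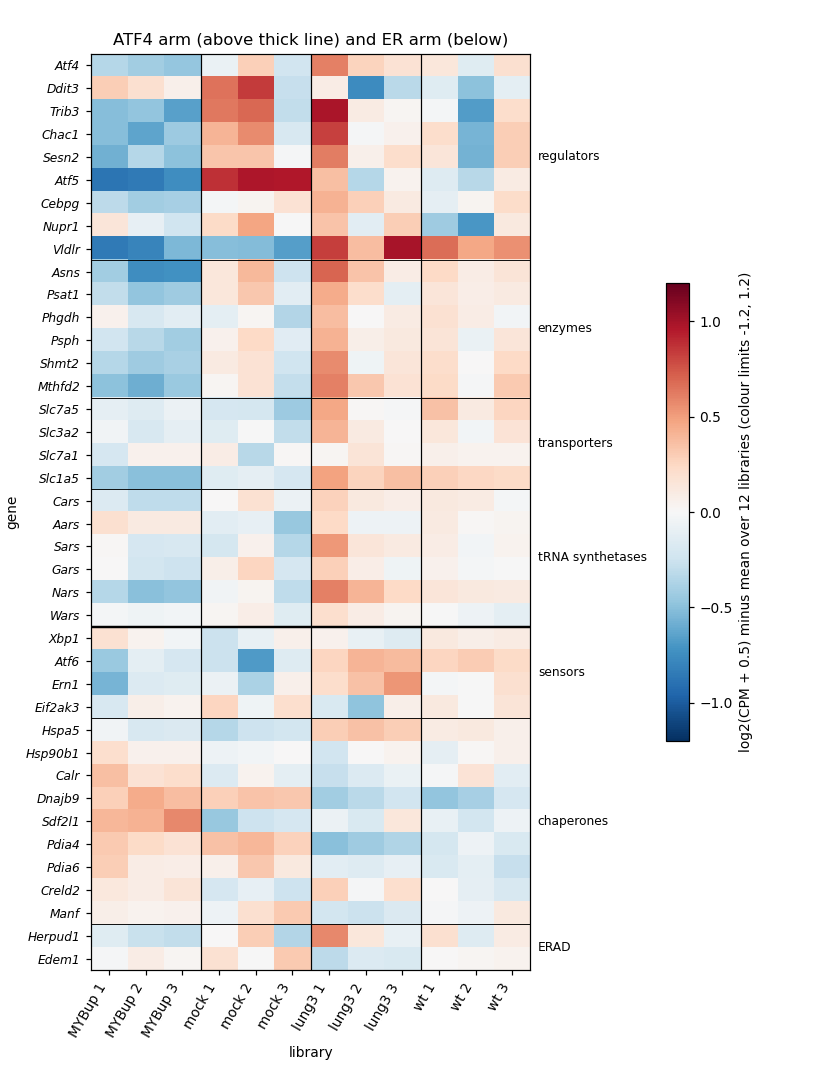
Each row is 1 of the 40 genes and each column 1 library; colour is log2(CPM + 0.5) minus that gene's mean over the 12 libraries, with the ATF4 arm above the thick line. MYBup libraries are blue through most ATF4 arm rows, mock replicate 3 is bluer than mock replicate 2 in most of them, and lung3 replicate 1 is the reddest of its group.

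As a single figure for each arm, the median over its genes of log2(CPM + 0.5) minus the gene's mean over all libraries was taken. For the ATF4 arm it was -0.29, -0.35 and -0.40 in the MYBup libraries, against 0.03, 0.18 and -0.23 in the mock libraries. It was 0.44, 0.09 and 0.09 in lung3, against 0.14, -0.01 and 0.15 in wt. All 3 MYBup libraries thus lay below the other 9, with mock replicate 3 the nearest. For the ER arm it was 0.12, 0.07 and 0.05 in MYBup, against -0.06, -0.03 and 0.06 in mock. It was -0.13, -0.15 and -0.08 in lung3, against -0.01, -0.00 and 0.06 in wt. The spread of the ER arm over the 12 libraries was narrower, and on this measure the lung3 libraries were the lowest group. Gene by gene, the ER arm change in lung3 against wt was above 0 for 8 of the 15 and below 0 for 7. Its median was 0.03 on the log2 scale.

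**Figure D2:**
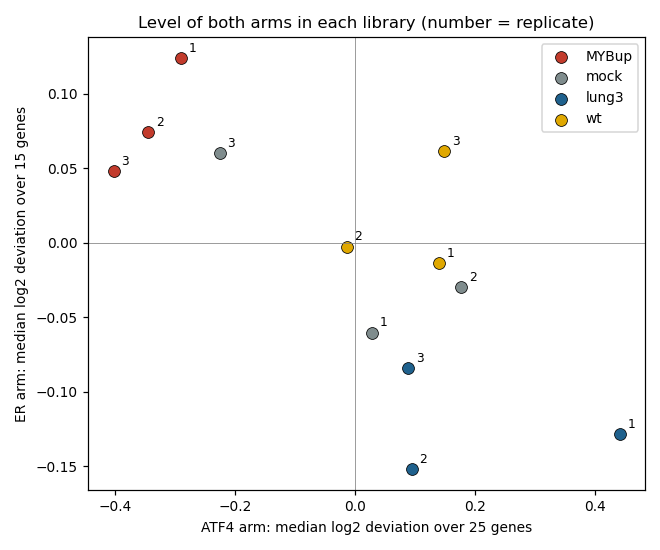
Each point is 1 library, with its replicate number; the horizontal axis is the ATF4 arm median and the vertical axis the ER arm median of the log2 deviations. The MYBup libraries sit at the left, from -0.40 to -0.29, and lung3 replicate 1 sits at the right at 0.44.

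With Myb overexpressed, 14 of the 25 ATF4 arm genes were lower. In the ER arm 3 of 15 genes (20%) were higher, near the 14.3% over all genes tested. In MYBup against mock, 14 of the 25 ATF4 arm genes were lower at an adjusted p below 0.05, when 12.6% of all genes tested were lower. In the other direction 1 of the 25 was higher (Aars), when 14.3% of all genes were higher. In the ER arm 3 of 15 were higher (Sdf2l1, Calr and Creld2) and 0 were lower in edgeR, with 0 lower also at an unadjusted p below 0.05, in DESeq2 and in limma voom. The median log2 fold change was -0.32 over the ATF4 arm and 0.06 over the ER arm, against 0.00 over all genes tested. Every MYBup library was below every mock library for 14 ATF4 arm genes, against 18.8% of all genes tested, and above every mock library for 2 ATF4 arm and 5 ER arm genes, against 21.8%. The count of 15 ATF4 arm genes that passed fell to 8 without mock replicate 1, 8 without mock replicate 2, 9 without MYBup replicate 1, and 7 without MYBup replicate 2 or MYBup replicate 3. In these bulk libraries fewer cells expressing a gene and less RNA per cell cannot be told apart.

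**Figure D3:**
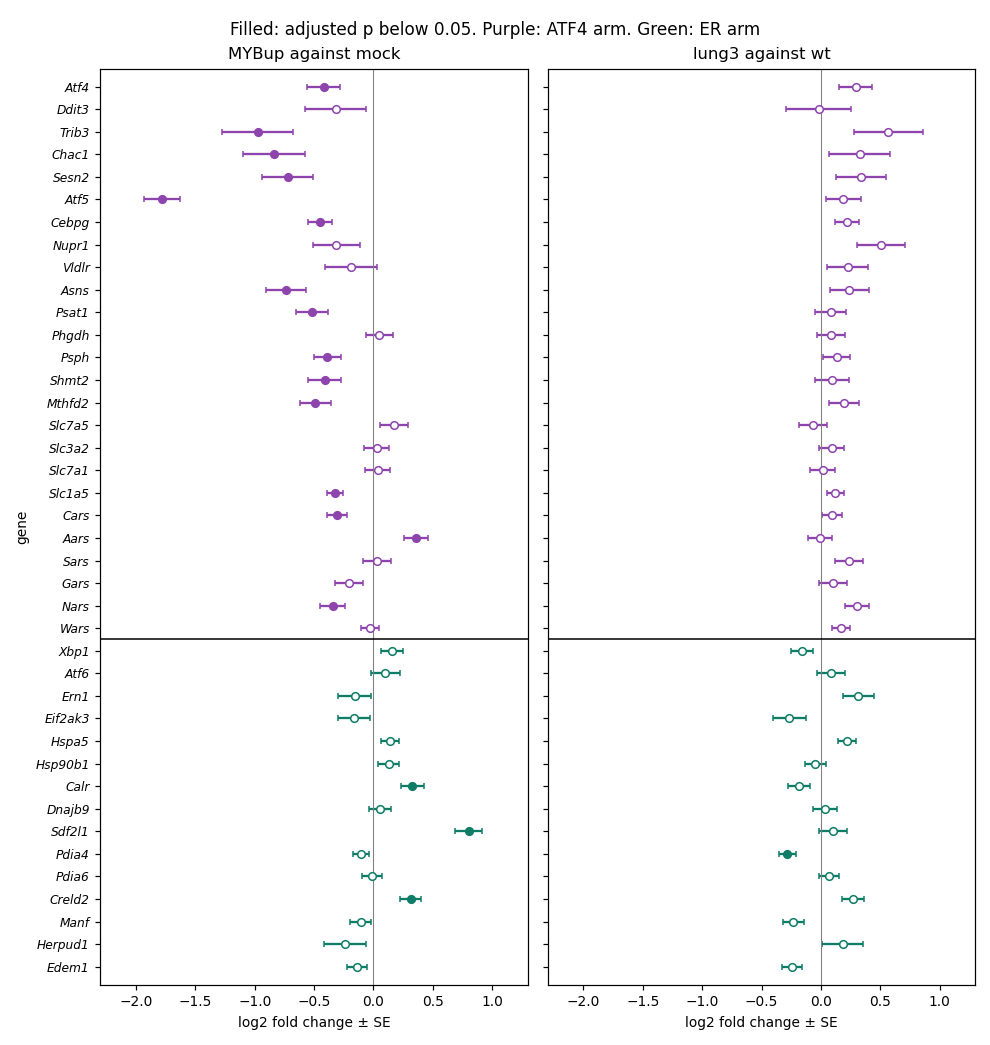
Each point is the log2 fold change of 1 gene with its standard error, for MYBup against mock on the left and lung3 against wt on the right; filled points have an adjusted p below 0.05, and the line separates the ATF4 arm above from the ER arm below. On the left 14 ATF4 arm points are filled below 0, and on the right Pdia4 is the only filled point.

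Of the 9 regulators, 6 were lower in MYBup than in mock cells (Atf4, Trib3, Chac1, Sesn2, Atf5 and Cebpg) and 0 were higher. Atf4 encodes the transcription factor of the pathway. Its mRNA was at 210, 199 and 193 CPM in MYBup libraries, against 252, 325 and 227 CPM in mock libraries. No MYBup library reached a mock library, and mock replicate 3 was close to MYBup replicate 1. The log2 fold change was -0.42 (SE 0.14, adjusted p = 0.0406), or 1.34-fold lower. This call was lost without any 1 of mock replicate 1, mock replicate 2, MYBup replicates 1, 2 and 3 or wt replicate 1. Without mock replicate 2 the fold change was -0.26 on the log2 scale.

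Atf5 (ENSMUSG00000038539, chr7:44812256-44816658, GRCm38, minus strand), a bZIP factor whose translation is controlled like that of ATF4, changed most. It was at 15.8, 16.1 and 17.3 CPM in MYBup libraries, against 54.3, 58.0 and 57.7 CPM in mock libraries. The groups were far apart and each was tight. The log2 fold change was -1.78 (SE 0.15, adjusted p = 4.34e-06), or 3.44-fold lower. Cebpg, a C/EBP partner of ATF4, was at 48.7, 45.4 and 45.9 CPM in MYBup libraries, against 59.9, 62.3 and 68.6 CPM in mock libraries. Its log2 fold change was -0.45 (SE 0.10, adjusted p = 0.00562).

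Trib3 (ENSMUSG00000032715, chr2:152337422-152344032, minus strand) encodes a pseudokinase that damps ATF4 activity. It was at 20.4, 21.0 and 18.5 CPM in MYBup libraries, against 45.8, 47.8 and 23.9 CPM in mock libraries. The groups did not overlap, but mock replicate 3 lay nearer to MYBup than to the other mock libraries. The log2 fold change was -0.98 (SE 0.30, adjusted p = 0.0285). Chac1, a glutathione-degrading enzyme and an ATF4 target, was at 20.9, 19.2 and 22.1 CPM in MYBup libraries, against 40.2, 44.8 and 26.3 CPM in mock libraries. Mock replicate 3 was again the closest to MYBup, and the log2 fold change was -0.84 (SE 0.26, adjusted p = 0.0313). Sesn2, a leucine sensor that restrains mTORC1, was at 8.06, 9.54 and 8.59 CPM in MYBup libraries, against 15.6, 15.5 and 12.1 CPM in mock libraries. Its log2 fold change was -0.72 (SE 0.22, adjusted p = 0.025). Trib3 and Chac1 no longer passed without any 1 of mock replicates 1 and 2 or the 3 MYBup replicates, and Sesn2 without mock replicate 1, MYBup replicate 1 or MYBup replicate 3.

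The other 3 regulators did not pass. Ddit3 encodes CHOP, a pro-apoptotic factor downstream of ATF4. It was at 9.61, 8.95 and 8.11 CPM in MYBup libraries, against 12.5, 14.3 and 6.34 CPM in mock libraries. Mock replicate 3 was the lowest of the 6 and the groups overlapped (log2 fold change -0.32, SE 0.26, adjusted p = 0.39). Without mock replicate 3 the log2 fold change was -0.59 and Ddit3 passed (adjusted p = 0.0455). Nupr1, a stress-induced chromatin protein, and Vldlr, a lipoprotein receptor, had log2 fold changes of -0.31 (adjusted p = 0.269) and -0.19 (adjusted p = 0.57).

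Of the 6 enzymes of amino acid synthesis and one-carbon metabolism, 5 were lower in MYBup than in mock and 0 were higher. Asns (ENSMUSG00000029752, chr6:7675169-7693254, minus strand) encodes asparagine synthetase, whose promoter window is among those shown above. It was at 185, 147 and 149 CPM in MYBup libraries, against 270, 321 and 208 CPM in mock libraries. The groups did not overlap, and the log2 fold change was -0.74 (SE 0.16, adjusted p = 0.00512), or 1.67-fold lower. Psat1, which makes phosphoserine, was at 582, 513 and 528 CPM in MYBup libraries, against 782, 889 and 651 CPM in mock libraries. Its log2 fold change was -0.52 (SE 0.13, adjusted p = 0.0111). Psph, the phosphatase that completes serine synthesis, was at 57.8, 53.9 and 50.9 CPM in MYBup libraries, against 70.4, 80.2 and 61.7 CPM in mock libraries. Its log2 fold change was -0.39 (SE 0.12, adjusted p = 0.0257).

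The mitochondrial one-carbon enzymes moved with them. Shmt2, which turns serine into glycine in mitochondria, was at 224, 211 and 217 CPM in MYBup libraries, against 305, 321 and 241 CPM in mock libraries. Its log2 fold change was -0.41 (SE 0.14, adjusted p = 0.0454). Mthfd2, the next folate enzyme, was at 92.6, 86.8 and 95.9 CPM in MYBup libraries, against 133, 147 and 107 CPM in mock libraries. The log2 fold change was -0.49 (SE 0.13, adjusted p = 0.0138). Phgdh, the first enzyme of serine synthesis, was the exception among the 6: it was at 434, 366 and 383 CPM in MYBup libraries, against 387, 427 and 329 CPM in mock libraries. These overlapped, at a log2 difference of 0.05 (SE 0.12, adjusted p = 0.779).

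Of the 4 amino acid transporters, 1 was lower and 0 higher. Slc1a5, the glutamine carrier ASCT2, was at 122, 115 and 115 CPM in MYBup libraries, against 148, 151 and 142 CPM in mock libraries. Each group was tight and the log2 fold change was -0.32 (SE 0.07, adjusted p = 0.00413). The pair that forms the LAT1 carrier for leucine and other large amino acids did not pass. Slc7a5, its light chain, was at 376, 365 and 385 CPM in MYBup libraries, against 352, 350 and 299 CPM in mock libraries. Every MYBup library was above every mock library there, yet the log2 fold change was only 0.17 (SE 0.12, adjusted p = 0.311). Slc3a2, the heavy chain, had a log2 fold change of 0.03 (adjusted p = 0.872), and Slc7a1, an arginine and lysine carrier, of 0.04 (adjusted p = 0.836).

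The 6 synthetases, which charge tRNAs with their amino acids, were split. Cars (cysteine) was at 121, 110 and 110 CPM in MYBup libraries, against 137, 154 and 130 CPM in mock libraries. On the log2 scale the change was -0.31 (SE 0.08, adjusted p = 0.0177). Nars (asparagine) was at 379, 341 and 346 CPM in MYBup libraries, against 469, 493 and 390 CPM in mock libraries. The log2 difference was -0.34 (SE 0.10, adjusted p = 0.0251). Aars (alanine) went the other way, at 479, 452 and 452 CPM in MYBup libraries, against 384, 390 and 305 CPM in mock libraries. The groups did not overlap, and the log2 fold change was 0.36 (SE 0.10, adjusted p = 0.0211), a call lost without mock replicate 3 or MYBup replicate 1. Aars shares 1326 exon bases with Exosc6 on the same strand, a gene for which the count table has no row, so its counts are uncertain. Gars (glycine), Sars (serine) and Wars (tryptophan) had log2 fold changes of -0.20, 0.03 and -0.03, and adjusted p from 0.218 to 0.875.

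Only 5 of the 18 calls in MYBup against mock held in all 20 alternative settings tried, namely Atf5, Cebpg, Asns, Psat1 and Sdf2l1. None of the 18 changed direction in any of them. Among the genes not yet covered, Psph lost its call without mock replicate 1 or 2 or MYBup replicate 2 or 3, Nars without the same 4 libraries 1 at a time, and Cars without mock replicate 2 or MYBup replicate 2 or 3. Mthfd2 lost it without MYBup replicate 2. Shmt2 lost it without any 1 of mock replicates 1 and 2, the 3 MYBup replicates, wt replicates 1 and 3 or lung3 replicate 3. Strand was not stated for the counting, so genes whose exons overlap a gene on the other strand are less certain: Psph shares 452 bases with Cct6a, Cars 211 with the pseudogene Gm15580, Atf5 82 with Il4i1 and Nup62, and Shmt2 32 with Ndufa4l2.

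**Figure D4:**
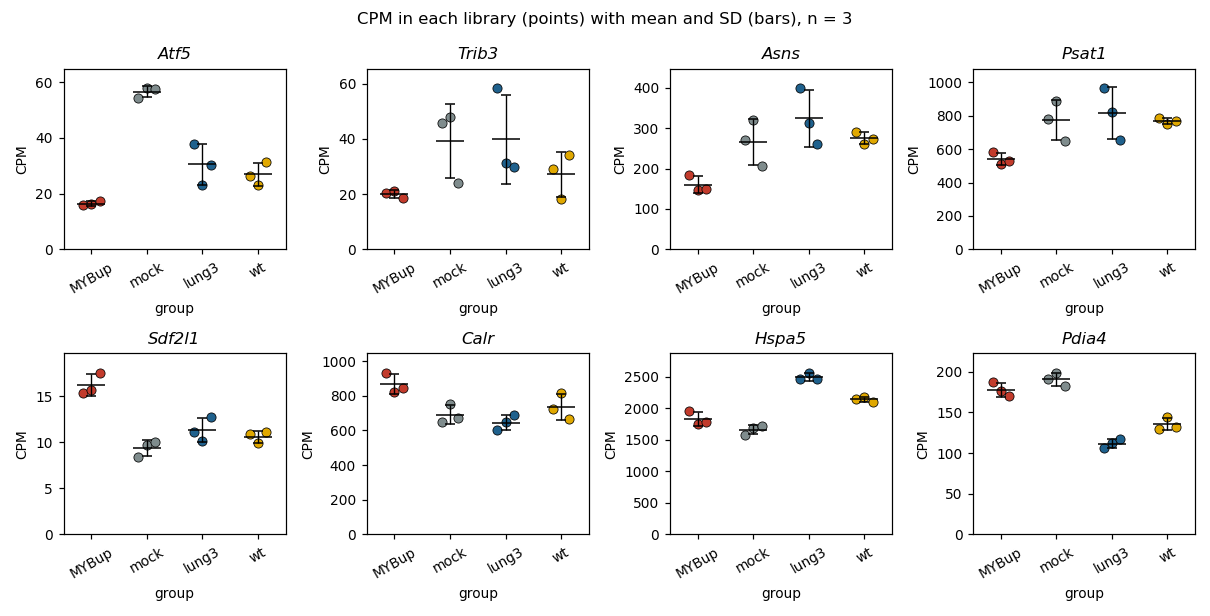
CPM of 8 genes in each library, with points for the 3 replicates and bars for mean and SD; every vertical axis starts at 0. Atf5 shows no overlap between MYBup (15.8 to 17.3) and mock (54.3 to 58.0), Trib3 and Asns show mock replicate 3 nearest to MYBup, and Pdia4 is lower in lung3 (106 to 117) than in wt (130 to 144).

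The 3 ER arm genes that passed are 20% of the arm, near the 14.3% of all genes that were higher; all 3 stand among the 9 chaperones, and differences between the roles were not tested. Sdf2l1 (ENSMUSG00000022769, chr16:17130138-17132383, minus strand) is an ER protein that works with BiP and its co-chaperones. It was at 15.4, 15.7 and 17.5 CPM in MYBup libraries, against 8.35, 9.70 and 10.0 CPM in mock libraries. The groups were well apart, and the log2 difference was 0.80 (SE 0.12, adjusted p = 0.000298), or 1.74-fold higher. Calr, the lectin chaperone calreticulin, was at 934, 824 and 846 CPM in MYBup libraries, against 651, 753 and 670 CPM in mock libraries. The fitted log2 change was 0.33 (SE 0.09, adjusted p = 0.0203). Creld2, a folding factor induced by ER stress, was at 30.9, 30.2 and 31.6 CPM in MYBup libraries, against 24.6, 26.3 and 23.7 CPM in mock libraries. In log2 terms it changed by 0.31 (SE 0.09, adjusted p = 0.0232). Without mock replicate 1, mock replicate 3 or MYBup replicate 1, the count of 3 was 1, Sdf2l1, and Creld2 also lost its call without MYBup replicate 3.

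The best known readouts of ER stress did not pass. Hspa5 encodes BiP, the ER's main Hsp70 chaperone. It was at 1947, 1753 and 1781 CPM in MYBup libraries, against 1578, 1686 and 1716 CPM in mock libraries. Every MYBup library was above every mock library by a small margin (log2 fold change 0.14, SE 0.07, adjusted p = 0.182). Xbp1, the factor spliced by IRE1, was at 69.5, 63.2 and 59.8 CPM in MYBup libraries, against 51.1, 57.5 and 63.9 CPM in mock libraries. Those groups overlapped (log2 fold change 0.16, SE 0.09, adjusted p = 0.228).
Herpud1, which helps to clear misfolded ER proteins and whose promoter holds both kinds of element, was at 47.7, 43.8 and 42.9 CPM in MYBup libraries, against 52.7, 64.9 and 41.1 CPM in mock libraries. Mock replicate 3 was the lowest of these 6, as for Ddit3 (log2 fold change -0.24, SE 0.17, adjusted p = 0.337). The sensors Atf6, Ern1 and Eif2ak3 had log2 fold changes of 0.10, -0.16 and -0.17, and adjusted p from 0.389 to 0.568. Hsp90b1, Dnajb9, Pdia4, Pdia6 and Manf, all helpers of folding, and Edem1, which sends glycoproteins to degradation, lay between -0.14 and 0.13 on the log2 scale and did not pass.

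After selection in the lung no ATF4 arm gene passed, and most had positive changes, with a smaller median when lung3 replicate 1 was left out. In lung3 against wt, 0 of the 25 ATF4 arm genes were higher and 0 lower at an adjusted p below 0.05 in edgeR, when 2.91% of all genes tested were higher and 2.44% lower. At an unadjusted p below 0.05, 4 were higher and 0 lower, and DESeq2 and limma voom each gave 0 in both directions. Without wt replicate 3 the count was 1, Nupr1 at a log2 fold change of 0.78. The log2 fold change was above 0 for 22 of the 25 and the median was 0.17, against 0.00 over all genes. Without lung3 replicate 1 it was above 0 for 16 of the 25 and the median was 0.03, and without wt replicate 2 the median was 0.11. In the ER arm 1 of 15 was lower (Pdia4) and 0 were higher, with a median of 0.03. Pdia4 (ENSMUSG00000025823, chr6:47796141-47813430, minus strand), a protein disulfide isomerase, was at 106, 112 and 117 CPM in lung3 libraries, against 130, 144 and 132 CPM in wt libraries. The groups did not overlap, and the change was -0.28 on the log2 scale (SE 0.07, adjusted p = 0.0385). That call was lost in 12 of the 20 alternative settings, among them leaving out any 1 lung3 or wt library, mock replicate 1, MYBup replicate 2 or MYBup replicate 3.

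Same-numbered lung3 and wt libraries deviated together, and with the replicate number as a block in a fit of these 6 libraries more genes passed. With this block 5 of 25 ATF4 arm genes were higher and 0 lower, and 3 of 15 ER arm genes were higher and 3 lower, when 8.67% of the 11085 genes tested in that fit were higher and 9.24% lower. Atf4 was at 405, 320 and 300 CPM in lung3 libraries, against 293, 240 and 303 CPM in wt libraries, and wt replicate 3 lay above lung3 replicate 3. On the log2 scale the change was 0.30 (SE 0.14, adjusted p = 0.242) without the block and 0.29 (adjusted p = 0.0251) with it. Trib3 was at 58.4, 31.4 and 29.8 CPM in lung3 libraries, against 28.9, 18.3 and 34.0 CPM in wt libraries. The groups overlapped, with adjusted p = 0.291 without the block and 0.0262 with it (log2 fold change 0.57 and 0.53). Without lung3 replicate 1 and without the block, the log2 fold change was 0.18 for Trib3 and 0.15 for Atf4.
Nupr1, Nars and Sars, which did not pass in the fit of all 12 libraries, also passed with the block, at log2 fold changes of 0.51, 0.30 and 0.23 and adjusted p of 0.00461, 0.00982 and 0.0454. Nars was at 734, 639 and 570 CPM in lung3 libraries, against 534, 522 and 518 CPM in wt libraries, and every lung3 library was above every wt library.
In the ER arm, Ern1 (log2 fold change 0.31, adjusted p = 0.0093), Creld2 (0.27, adjusted p = 0.0447) and Hspa5 (0.22, adjusted p = 0.0311) were higher with the block. Pdia4 (-0.28, adjusted p = 0.00765), Edem1 (-0.24, adjusted p = 0.0173) and Manf (-0.23, adjusted p = 0.0209) were lower with it. Hspa5 was at 2466, 2560 and 2456 CPM in lung3 libraries, against 2145, 2181 and 2098 CPM in wt libraries, so the groups did not overlap for this chaperone.

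The remaining stress genes chosen for full values overlapped between lung3 and wt, apart from Xbp1. Asns was at 400, 312 and 262 CPM in lung3 libraries, against 291, 261 and 273 CPM in wt libraries (log2 fold change 0.24, SE 0.16, adjusted p = 0.439), and its log2 fold change was 0.06 without lung3 replicate 1. Chac1 was at 53.7, 29.8 and 31.3 CPM in lung3 libraries, against 34.9, 20.4 and 37.0 CPM in wt libraries. The log2 difference was 0.33 (SE 0.26, adjusted p = 0.513), and -0.01 without lung3 replicate 1. Herpud1 was at 78.7, 58.0 and 49.6 CPM in lung3 libraries, against 60.3, 47.4 and 56.4 CPM in wt libraries. The fitted log2 change was 0.18 (SE 0.17, adjusted p = 0.598), and -0.03 without lung3 replicate 1. The changes of Chac1 and Herpud1 were thus no longer above 0 without that library, which was the highest of its group in 23 of the 25 ATF4 arm genes.
Ddit3 was at 8.29, 4.39 and 6.10 CPM in lung3 libraries, against 6.95, 5.37 and 7.10 CPM in wt libraries (log2 fold change -0.02, SE 0.27, adjusted p = 0.981). Xbp1 was at 63.5, 57.5 and 55.2 CPM in lung3 libraries, against 66.8, 64.6 and 65.9 CPM in wt libraries. Every lung3 library was below every wt library for Xbp1, and the gene did not pass (log2 fold change -0.16, SE 0.09, adjusted p = 0.344).

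The study asked whether a gene moves one way with Myb and the other way after lung passage. What was tested is the difference between the MYBup-mock and lung3-wt changes, which share no library. That difference can pass when only 1 of the changes departs from 0, so a call does not by itself show opposite movement. A value below 0 means that the change in MYBup against mock lay below that in lung3 against wt. The ATF4 arm had 13 genes below 0 past the threshold, against 9.52% of all genes tested, and 0 above 0, against 10.4%. The ER arm had 2 above 0, Calr (0.51, SE 0.13, adjusted p = 0.016) and Sdf2l1 (0.70, SE 0.17, adjusted p = 0.0104), and 0 below. Atf5 had the largest difference of the 40 genes at -1.97 (SE 0.21, adjusted p = 7.11e-05), followed by Trib3 at -1.54 (SE 0.42, adjusted p = 0.0204). Atf4 had -0.71 (SE 0.20, adjusted p = 0.0222), Asns -0.98 (SE 0.23, adjusted p = 0.0103) and Nars -0.65 (SE 0.15, adjusted p = 0.00764). The count of 15 genes over both arms fell to 9 without mock replicate 1 and to 8 without MYBup replicate 3. Atf4 lost its call without MYBup replicate 3, wt replicate 2 or lung3 replicate 1, and Trib3 without mock replicate 1, MYBup replicate 3 or lung3 replicate 1. No gene of the 40 passed in opposite directions in MYBup against mock and lung3 against wt without the block. With the block in the second comparison only, Atf4, Trib3 and Nars were lower in MYBup than in mock and higher in lung3 than in wt. With the same block in MYBup against mock, Atf4 and Nars lost their calls and Trib3 kept its call. In lung3 against wt, Atf4 and Trib3 each passed in only 1 of the 20 alternative settings.

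The control lines, mock and wt, also differed from each other. In mock against wt the ATF4 arm had 3 genes higher (Ddit3, Atf5 and Nupr1), against 18% of all genes tested, and 3 lower (Vldlr, Slc7a5 and Slc1a5), against 17.9%. Both counts were under the share over all genes. The ER arm had 3 of 15 higher (Dnajb9, Pdia4 and Pdia6), near that share, and 2 lower (Atf6 and Hspa5), under it. The calls of Ddit3 and Nupr1 were lost without mock replicate 1 or 2 or wt replicate 1 or 2, and that of Nupr1 also without MYBup replicate 2 or lung3 replicate 3. Atf5 was at 54.3, 58.0 and 57.7 CPM in mock libraries, against 26.3, 23.2 and 31.5 CPM in wt libraries, which made 1.07 on the log2 scale (SE 0.14, adjusted p = 0.000128). Mock was thus the highest group for Atf5, with the 38.0, 23.1 and 30.4 CPM of lung3 libraries near wt and MYBup the lowest. Vldlr was at 2.09, 2.07 and 1.83 CPM in mock libraries, against 5.36, 4.58 and 4.89 CPM in wt libraries (log2 fold change -1.30, SE 0.19, adjusted p = 0.000213). Dnajb9, a co-chaperone of BiP, was at 20.0, 20.8 and 20.6 CPM in mock libraries, against 11.6, 12.3 and 14.1 CPM in wt libraries (log2 fold change 0.69, SE 0.10, adjusted p = 0.000172). Hspa5 was at 1578, 1686 and 1716 CPM in mock libraries, against 2145, 2181 and 2098 CPM in wt libraries, at a log2 difference of -0.37 (SE 0.07, adjusted p = 0.00187).

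Set against wt in place of mock, MYBup had 13 ATF4 arm genes lower, when 18.7% of all genes tested were lower, and 0 higher, when 19.4% were higher. This comparison shares its MYBup libraries with MYBup against mock, so only values are set side by side. The log2 fold changes of MYBup against wt were -0.47 for Atf4 (SE 0.14, adjusted p = 0.017), -0.71 for Atf5 (SE 0.15, adjusted p = 0.00287) and -0.44 for Cebpg (SE 0.10, adjusted p = 0.00453). The call of Atf4 was lost without MYBup replicate 3 or wt replicate 1 or 3. Atf5 was thus 3.44-fold lower against mock but 1.64-fold lower against wt. Asns had -0.78 against wt (SE 0.16, adjusted p = 0.00257), beside -0.74 against mock, and Mthfd2 had -0.69 (SE 0.13, adjusted p = 0.00121), beside -0.49. Trib3 (-0.44, adjusted p = 0.267), Chac1 (-0.56, adjusted p = 0.106) and Sesn2 (-0.49, adjusted p = 0.0889) did not pass against wt. Aars, higher against mock, had 0.08 against wt (adjusted p = 0.545), and its 479, 452 and 452 CPM in MYBup libraries stood beside 452, 424 and 428 CPM in wt libraries.
In the ER arm 4 genes were higher in MYBup than in wt (Dnajb9, Sdf2l1, Pdia4 and Pdia6) and 2 were lower (Atf6 and Hspa5). Sdf2l1 had 0.61 (SE 0.11, adjusted p = 0.00112), beside 0.80 against mock. Hspa5 had -0.23 (SE 0.07, adjusted p = 0.0253), beside 0.14 against mock, so the sign for BiP differed with the control line. The call against wt was lost without MYBup replicate 2 or 3 or wt replicate 1 or 2. Calr (0.24, adjusted p = 0.0584) and Creld2 (0.23, adjusted p = 0.0654) did not pass against wt.

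Levels can be compared between genes per kilobase of annotated exon. On that scale the ER chaperones Hspa5, Hsp90b1 and Calr were the highest of the 40 genes in every group. Other chaperones were far lower, such as Dnajb9 at 8.34 CPM per kilobase in MYBup and 4.97 in wt. Hspa5 averaged 432 CPM per kilobase in MYBup, 393 in mock, 590 in lung3 and 506 in wt, and Hsp90b1, the ER Hsp90, averaged 349, 319, 313 and 323 in the same order of groups. The highest ATF4 arm gene averaged 159 CPM per kilobase in MYBup (Phgdh), 182 in mock (Psat1), 192 in lung3 (Psat1) and 181 in wt (Psat1). The lowest of the 40 was Vldlr, at 0.17 in MYBup, 0.20 in mock, 0.57 in lung3 and 0.49 in wt.

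Other genes of these pathways, taken from 8 lists, were counted in the same way. No list was tested as a whole, and each count stands beside the 14.3% of all genes tested that were higher and the 12.6% that were lower in MYBup than in mock. Of 24 tested of 29 other ATF4 response genes, 3 (12.5%) were higher and 6 (25%) lower in MYBup than in mock, with a median log2 fold change of -0.18. Aldh1l2, a mitochondrial folate enzyme, was at 1.79, 1.85 and 2.45 CPM in MYBup libraries, against 12.6, 8.98 and 11.8 CPM in mock libraries (log2 fold change -2.43, SE 0.41, adjusted p = 0.000889). It shares 1056 exon bases with D10Wsu102e on the other strand. Stc2, a secreted glycoprotein induced by ATF4, went the other way, at 7.98, 7.32 and 8.11 CPM in MYBup libraries, against 1.52, 1.43 and 1.70 CPM in mock libraries (log2 fold change 2.33, SE 0.17, adjusted p = 8.92e-07). The wt libraries held 14.3, 11.5 and 12.4 CPM of Stc2 and 0.682, 0.413 and 2.64 CPM of Aldh1l2, so for both genes mock was the group far from wt, with MYBup between. Gpt2, which makes alanine, was lower in MYBup (log2 fold change -0.89, SE 0.18, adjusted p = 0.00271), and Cth, which makes cysteine, was higher (0.70, SE 0.19, adjusted p = 0.0158). Of 17 other serine, glycine and one-carbon genes tested, 1 (5.88%) was higher and 2 (11.8%) lower, both under the share over all genes. They were Mtrr (0.31, adjusted p = 0.0211), Oat (-0.43, adjusted p = 0.000596) and Gpt2, which stands in both lists.

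Of 17 other cytosolic synthetases and their scaffold proteins, 2 (11.8%) were higher in MYBup than in mock and 1 (5.88%) lower, both under the share over all genes, with a median of 0.02. Kars (lysine) was at 504, 432 and 435 CPM in MYBup libraries, against 329, 367 and 289 CPM in mock libraries (log2 fold change 0.48, SE 0.10, adjusted p = 0.00278). Vars (valine) had 0.30 (adjusted p = 0.0365) and Eef1e1, a scaffold protein, -0.25 (adjusted p = 0.0264). In mock against wt, 11 of the 17 were lower, against 17.9% of all genes tested, and 1 was higher, against 18%. In lung3 against wt this list had 3 higher, against 2.91% of all genes tested, and 0 lower, against 2.44%. The 3 were Tars (threonine, 0.46, SE 0.07, adjusted p = 0.00355), Eef1e1 (0.35, SE 0.08, adjusted p = 0.0158) and Lars (leucine, 0.33, SE 0.08, adjusted p = 0.0354). Without the block it was the only list of the 8 with a gene past the threshold in that comparison. Tars was at 569, 511 and 521 CPM in lung3 libraries, against 392, 365 and 406 CPM in wt libraries. Of 17 mitochondrial synthetases, 0 were higher and 3 (17.6%) lower in MYBup than in mock (Ears2 -0.42, Rars2 -0.34 and Iars2 -0.29).

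Upstream of ATF4, 2 of 18 genes of eIF2, its kinases and phosphatases were higher in MYBup than in mock (11.1%) and 3 lower (16.7%), shares near those over all genes. Eif2s3x, the X-linked gamma subunit of eIF2, was at 74.1, 85.5 and 90.7 CPM in MYBup libraries, against 188, 146 and 180 CPM in mock libraries (log2 fold change -1.04, SE 0.11, adjusted p = 3.66e-05). The lung3 libraries held 156, 191 and 156 CPM of it and the wt libraries 169, 188 and 185 CPM, so MYBup alone was low. Impact, an inhibitor of the kinase GCN2, was also lower (-0.59, SE 0.12, adjusted p = 0.00298), as was the gene of GCN2 itself, Eif2ak4 (-0.27, SE 0.09, adjusted p = 0.0408). The kinase gene Eif2ak2 was higher (0.46, SE 0.12, adjusted p = 0.014), as was the initiation factor gene Eif2a (0.46, SE 0.07, adjusted p = 0.000285). For both, mock was the group apart: against wt, Eif2ak2 had -0.45 in mock (adjusted p = 0.0118) and 0.01 in MYBup (adjusted p = 0.935), and Eif2a had -0.46 in mock (adjusted p = 0.000216) and 0.00 in MYBup (adjusted p = 0.98).

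Downstream of the ER sensors, 6 of 26 other ER folding genes were higher in MYBup than in mock (23.1%) and 1 lower (3.85%), with a median of 0.07. Fkbp14, a prolyl isomerase of collagen folding, was at 7.98, 8.58 and 7.73 CPM in MYBup libraries, against 3.56, 3.35 and 2.48 CPM in mock libraries (log2 fold change 1.36, SE 0.22, adjusted p = 0.000695). It shares 208 exon bases with Plekha8 on the other strand. Ero1lb, an ER oxidase (0.44, SE 0.14, adjusted p = 0.0346), Cnpy3, a chaperone of Toll-like receptors (0.39, SE 0.10, adjusted p = 0.0115), and Dnajc3, a BiP co-chaperone (0.37, SE 0.10, adjusted p = 0.0174), were higher too. Of 26 degradation and translocation genes tested, 2 (7.69%) were higher and 3 (11.5%) lower, led by Herpud2 (-0.74, SE 0.08, adjusted p = 3.44e-05). Of 10 further sensor and processing genes tested, 2 (20%) were higher, Atf6b (0.47, SE 0.11, adjusted p = 0.00813) and the ATF6-cleaving protease Mbtps1 (0.45, SE 0.08, adjusted p = 0.000794), and 2 (20%) lower, Creb3l2 (-0.50, SE 0.16, adjusted p = 0.0308) and Bcl2l11 (-0.43, SE 0.08, adjusted p = 0.00206).

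**Figure D5:**
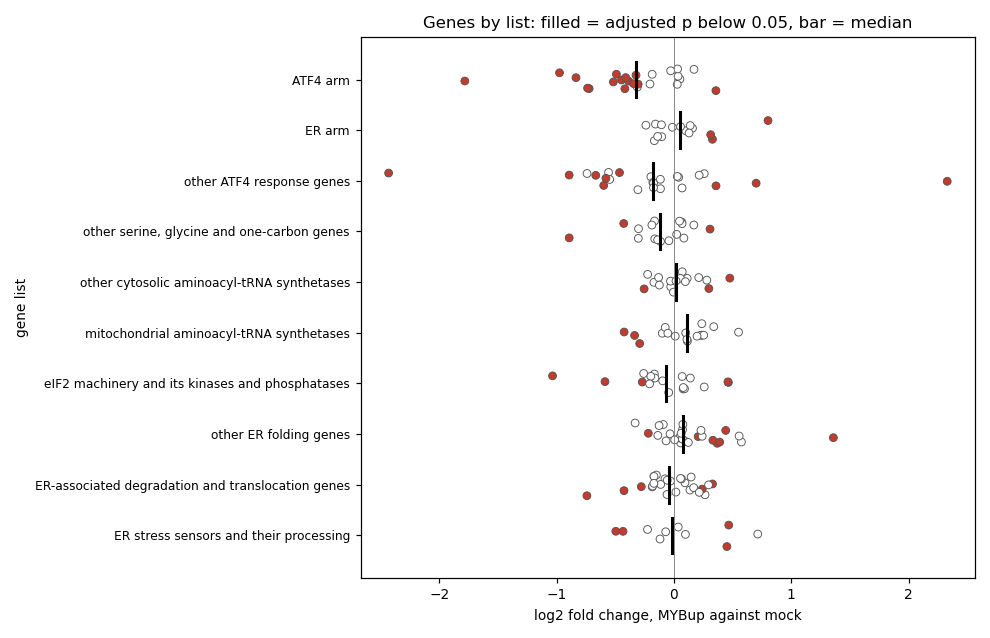
Each point is the log2 fold change of 1 gene in MYBup against mock, by list, filled where the adjusted p is below 0.05, with the list median as a bar. The ATF4 arm has its median at -0.32 and the ER arm at 0.06, and the other cytosolic synthetases lie around 0.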

How the data were processed

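Gene expression was measured by RNA-seq in 12 libraries. The deposited values are raw counts per gene, made by the authors with STAR on GRCm38 per the submitters' processing notes, which also name edgeR; the counting tool, its strand option, the annotation and all versions were not stated in those notes or in the labels. The 2708 values over 4 digits are rounded to 4 significant digits. Symbols and coordinates came from GENCODE M21 (22647 of 22880 features matched).

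Counts were tested with edgeR 4.0.16 (R 4.3.3; TMM, filterByExpr, quasi-likelihood F test, all 12 libraries, a term per group), with Benjamini-Hochberg adjustment over 11291 genes and a threshold of 0.05. SE is the absolute log2 fold change over the square root of F. Alternatives were another scaling, no filter, DESeq2 1.42.0, limma 3.58.1 (voom), fits of 6 libraries, a replicate block, libraries left out and a 1.5-fold minimum. The tests were checked on simulated data.

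Replicate pairs differed by more than sampling noise, but not equally. The chi-square per gene was 2.24 for MYBup replicates 2 and 3, the closest pair. It ran from 6.33 (wt replicates 1 and 2) to 36.1 (mock replicates 2 and 3) in the other pairs. The labels state no pairing. Deviations of same-numbered lung3 and wt libraries correlated at 0.313, 0.276 and 0.309, so a blocked fit is given beside the main fit for them. The main fit used no block, also for lung3 against wt and for the difference of the changes. Same-numbered MYBup and mock libraries correlated at -0.179, -0.461 and 0.353, and mock and wt at -0.108, 0.104 and 0.0475. MYBup and mock libraries of unlike number ranged from -0.508 (MYBup replicate 1, mock replicate 3) to 0.605 (MYBup replicate 1, mock replicate 2). The source of such shared variation was not tested.

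The 40 genes, the lists and the tests were chosen with earlier results of these data known. Full values are given for genes past the threshold in MYBup against mock or lung3 against wt and for Atf4, Ddit3, Trib3, Asns, Chac1, Xbp1, Hspa5 and Herpud1, and up to 4 called genes are named per list. Eif2ak4, the fifth of its list, and values of Vldlr, Dnajb9, Slc7a5, Phgdh and Nars beyond that were added after they were seen. Promoter sequences are RefSeq's, on GRCm38.p6, shown with 16 bases on each side of the match, or 5 where the window overlaps an annotated exon.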

Additional observations from a re-analysis of the deposited data

How the results depend on the processing

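The genes that passed in MYBup against mock kept their direction under every alternative tried, but 13 of the 18 lost their call in at least 1. With 1 library left out, the number that passed ranged from 7 to 15 for the ATF4 arm and from 1 to 4 for the ER arm in MYBup against mock, from 0 to 1 and from 0 to 2 in lung3 against wt, from 4 to 7 and from 5 to 6 in mock against wt, from 10 to 15 and from 5 to 9 in MYBup against wt, and from 8 to 18 over both arms for the difference of the changes. With a replicate block in a fit of 6 libraries, 7 ATF4 arm and 1 ER arm gene passed in MYBup against mock. Same-numbered libraries did not all deviate together there. In lung3 against wt, where they did, 5 ATF4 arm and 6 ER arm genes passed with the block. It changed no count by over 1.5 times in the other comparisons. With the block over all 12 libraries 0 ER arm genes passed in lung3 against wt.

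With a minimum of 1.5-fold, 5 ATF4 arm and 1 ER arm gene passed in MYBup against mock, 0 ER arm genes in lung3 against wt, 3 and 2 in mock against wt, and 5 and 2 in MYBup against wt. With mock replicate 3 and lung3 replicate 3 both left out, 1 ER arm gene passed in MYBup against mock, and 1 ATF4 arm and 0 ER arm genes in lung3 against wt. For lung3 against wt the ER arm count was 0 with no filter and 2 with DESeq2. Fewer samples lower the power of the fits that leave libraries out; the cause of the other shifts was not tested. The shallowest library held 8912989 counts. Depth and the 3 libraries a group both limit the precision, and for genes with few counts such as Vldlr and Sdf2l1 counting error is part of the SE.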
